A study of Mus musculus with 16 samples.

Results

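The hearts compared here differed in the last allele of MuRF2 on a background without MuRF1. They were the 4 arrays labelled MuRF1 -/- // MuRF2 -/-, called double null, and the 4 labelled MuRF1 -/- // MuRF2 +/-, called MuRF1 null MuRF2 het. They were chosen by genotype label alone and made up 8 of the 16 arrays of the series. Both groups lacked MuRF1 entirely, so the comparison was between 0 and 1 copies of the MuRF2 gene and held no heart with MuRF1. All mice were 12 weeks old and described as strain-matched, each array held RNA of 1 whole heart, and the labels called the replicates biological. Hearts of 4 wild type mice, with 2 copies of each gene, gave the level of an unaltered heart, and 4 arrays of a further genotype, MuRF1 het MuRF2 null, entered the fit only through its estimate of the spread. The sources used here do not say how the alleles were made.

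The MuRF proteins, named for a RING finger domain and for muscle, are MuRF1 (gene Trim63), MuRF2 (Trim55) and MuRF3 (Trim54). They sit at the sarcomere of striated muscle and act as ubiquitin ligases, enzymes that mark proteins for degradation by the proteasome, and MuRF1 and MuRF2 share several protein partners. Heart muscle under load or strain is known to take up a fetal programme, with natriuretic peptides, skeletal actin and the slow myosin heavy chain rising, while genes of fatty acid burning fall.

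Values are log2 ratios of Cy5-labelled heart RNA over a common Cy3-labelled reference, which was RNA of pooled whole C57BL/6 pups taken on postnatal day 1. A value of 1 means 2 times the signal of the reference, and the 8 arrays share that reference. Differences are double null minus MuRF1 null MuRF2 het, with the standard error from limma, and p values were adjusted by the Benjamini-Hochberg method over the 12345 genes tested. The words rose and fell are kept for genes whose adjusted p was under 0.05. In bulk heart RNA, fewer cells of a type and less RNA per cell cannot be told apart.

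The arrays of both groups were dimmer and less even than those of wild type. Cy5 signal was well above background for 12151, 6065, 14520 and 11765 probes on double null arrays 1 to 4, and for 6425, 15084, 11518 and 13109 on MuRF1 null MuRF2 het arrays 1 to 4. The means, 11125 (SD 3587) and 11534 (SD 3705), gave p = 0.8 in an exact two-sided permutation test (n = 4 against 4, smallest possible p 0.0286), and the wild type mean was 15945 (SD 717). On the dimmest arrays, double null 2 and MuRF1 null MuRF2 het 1, the log2 ratios of the genes tested were also compressed, with an SD of 0.61 and 0.66 against 0.82 to 0.92 on the other 6. The Cy3 reference was above background for 22020 to 24087 probes. The replicate SD of a gene had a median of 0.20 for double null, 0.18 for MuRF1 null MuRF2 het and 0.11 for wild type hearts. Double null arrays 1 and 2 lay on a slide with 2 wild type arrays and double null arrays 3 and 4 on another such slide, but the MuRF1 null MuRF2 het arrays filled a slide of their own, and the effect of that slide and that of the genotype cannot be told apart. A fit with the slide as a random block estimated a correlation of -0.0076, so it hardly differed from the fit without it (44 genes passed), and it does not separate that slide from the genotype.

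The Trim63 probe used gave the MuRF1 genotype of both groups. Its log2 ratio was -0.78, -0.39, -1.04 and -0.68 in double null hearts, -0.34, -0.85, -0.75 and -0.60 in MuRF1 null MuRF2 het hearts and 2.51 to 2.71 in wild type hearts. Every array of either group lay more than 2 log2 units below every wild type array, and the difference between the 2 groups did not pass (-0.09 ± 0.14, adjusted p = 0.943 by limma), with signal above background on only 2 of 4 arrays in each. A second, dimmer Trim63 probe did not separate the genotypes, at -0.22 to 0.10 in the 2 groups and 0.06 to 0.28 in wild type. It was above background on 3 of 4 wild type arrays and 0 of 4 in each group. Trim55, the gene whose dose separated the groups, read -1.66, -0.52, -1.59 and -1.65 in double null hearts and -0.92, -1.61, -0.44 and -1.14 in MuRF1 null MuRF2 het hearts. These ranges overlapped, the difference did not pass (-0.33 ± 0.25, adjusted p = 0.760), and wild type hearts read -1.90 to -1.57, no higher than the double null. Double null array 2 stood apart from the other 3 of its group and high in the MuRF1 null MuRF2 het range. Without it the difference was -0.60 (adjusted p = 0.133), and without MuRF1 null MuRF2 het array 3 it was -0.13 (adjusted p = 0.976). The sources used here do not give the altered part of the Trim55 gene, so its probe did not check the MuRF2 labels, and the groups are called by those labels throughout. Trim54, encoding MuRF3, was 2.80 ± 0.18 in double null and 2.60 ± 0.13 in MuRF1 null MuRF2 het hearts (SD, n = 4), a difference that did not pass (0.20 ± 0.11, adjusted p = 0.636).

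In the fit to all arrays of the series, hearts without either MuRF differed from those with 1 MuRF2 allele in a small set of genes. The set included genes known from strained heart muscle and from mitochondrial fuel use. Of the 12345 genes, 41 passed in that fit (0.332%), 19 higher (0.154%) and 22 lower (0.178%) in double null hearts. An unadjusted p under 0.05 was found for 1194 (9.67%). The spread of each gene was estimated over all genotypes, wild type included. The median replicate SD was 0.11 in wild type, against 0.20 in double null and 0.18 in MuRF1 null MuRF2 het hearts. The standard errors given can thus be too small for this comparison, and with the 8 arrays alone 0 genes passed. Genotype and slide cannot be told apart here. The 4 arrays of one group all lay above the 4 of the other for 40 of the 41, which held for 2.84% of all genes (1.35% higher and 1.49% lower in double null), and Cpt2 was the exception. Chance alone would give such a separation of 4 against 4 arrays in a share of 0.0286, near that over all genes. The 41 were picked by p on these same arrays, so their separation is no further support. Folds of the genes that passed ran from 1.28 to 4.52 upward and from 1.38 to 2.16 downward, apart from Nppa, whose 5.31-fold rise is a lower limit because its spot was saturated on 1 double null array. The highest risers were the natriuretic peptide genes, Ccn2 and skeletal actin, and 8 of the 22 fallers were genes of fatty acid oxidation. Just inside the threshold stood Sms (adjusted p = 0.0453) and just outside it Smpd1 and Hspa8.

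**Figure D1:**
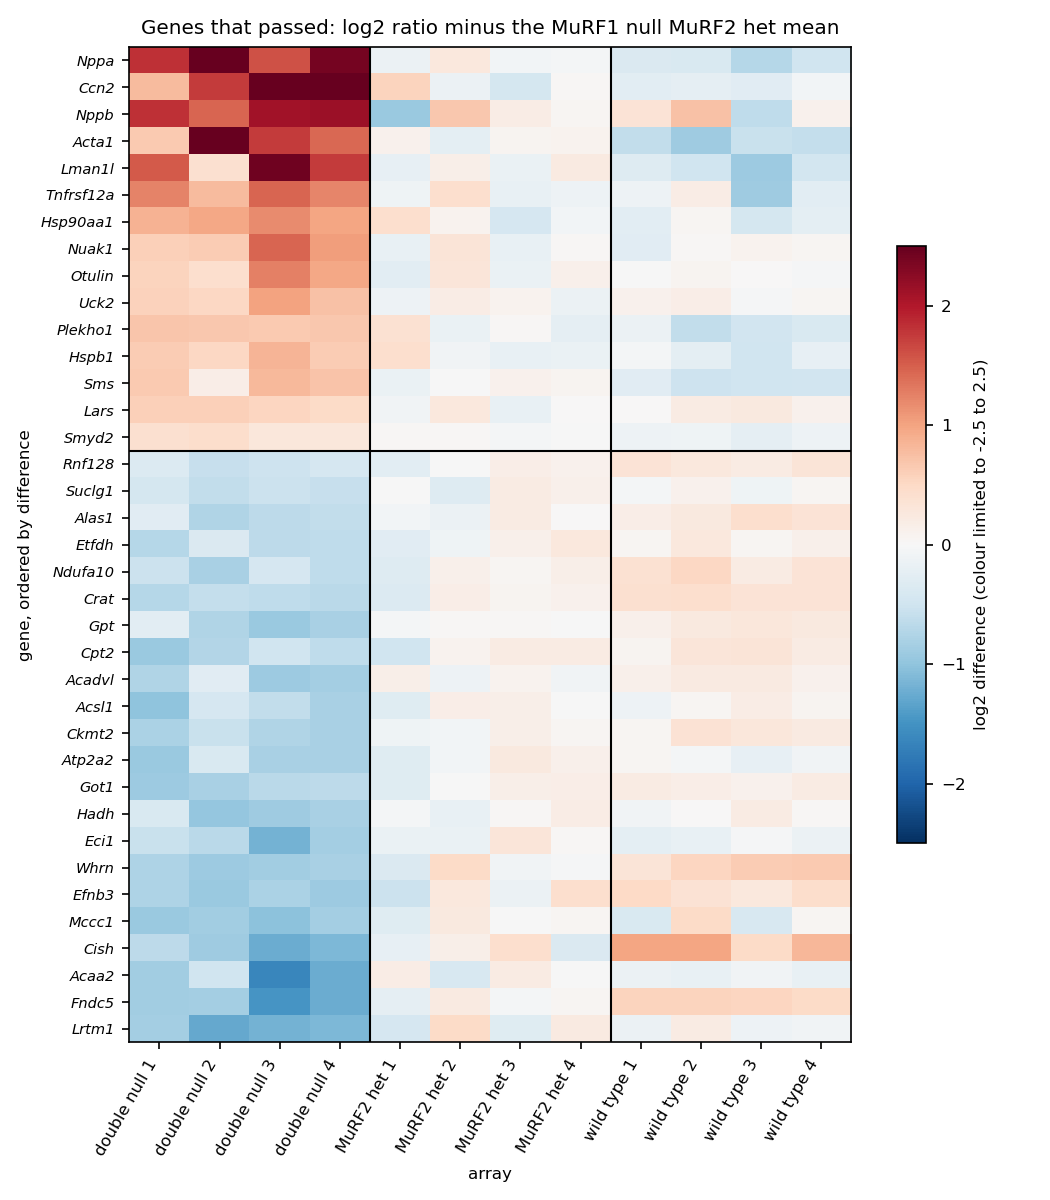
Log2 ratio on each array, minus the mean of the 4 MuRF1 null MuRF2 het arrays (written MuRF2 het), for the 37 genes with a symbol among the 41 that passed; red is higher and blue lower, with colour limited to -2.5 to 2.5, and columns are the 12 double null, MuRF1 null MuRF2 het and wild type arrays. The 15 genes above the line were red and the 22 below it blue on every double null array.

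The number of genes that passed rested on the normalization, the spread estimate and single arrays. With the 8 arrays alone, limma called 0 genes at adjusted p under 0.05. There, 565 genes (4.58%) had an unadjusted p under 0.05, no larger a share than chance alone would give. All 41 were among them, but they had been picked on these same arrays, so this is no further support. With each array centred on its median in place of loess, limma also called 0. That setting gave 185 genes (1.5%) with an unadjusted p under 0.05, 15 of the 41 among them. With 1 double null array left out, the count was 114 without array 1, 197 without array 2, 7 without array 3 and 3 without array 4. With 1 MuRF1 null MuRF2 het array left out, it was 353 without array 1, 18 without array 2, 4 without array 3 and 3 without array 4. Leaving out wild type arrays 1 to 4, which changed only the estimated spread, gave 22, 24, 39 and 19. Fndc5, Got1 and Ckmt2 passed in all 8 fits that left out an array of the groups compared.

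**Figure D2:**
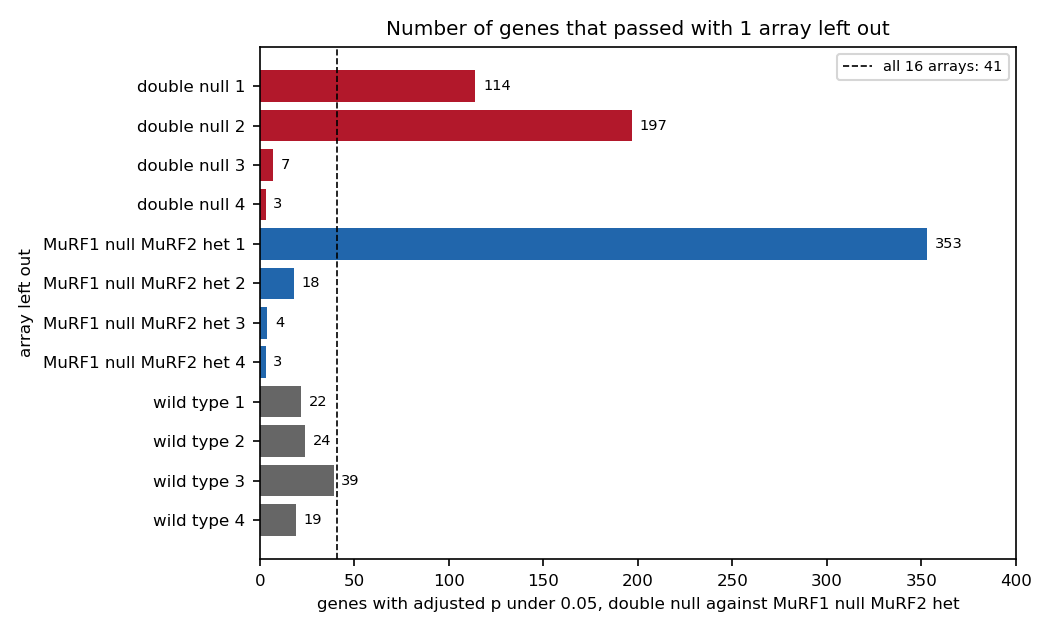
Number of genes with adjusted p under 0.05 (horizontal axis) in double null against MuRF1 null MuRF2 het hearts when the array named on the vertical axis is left out; the dashed line marks the 41 genes of the fit to all 16 arrays. Counts ran from 3 to 353, highest without MuRF1 null MuRF2 het array 1, the dimmest of its group.

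The load-responsive genes came first. Nppa, which encodes the atrial natriuretic peptide, read 4.63, 6.62, 4.40 and 5.18 in double null hearts and 2.66, 3.06, 2.74 and 2.75 in MuRF1 null MuRF2 het hearts. All double null values lay above all others, and all MuRF1 null MuRF2 het values lay above the wild type values of 2.43, 2.41, 2.08 and 2.30, by 0.49 in the mean, a difference that did not pass (adjusted p = 0.416). The rise was 2.41 ± 0.36, or 5.31-fold (adjusted p = 0.0115 by limma). The spot was saturated on double null array 3, so that array gives only a lower limit. A second Nppa probe, never saturated, read 4.84, 5.42, 5.75 and 5.90 against 1.57, 2.79, 2.13 and 2.31, a difference of 3.28. Nppb, encoding the B-type natriuretic peptide, read 5.40, 5.01, 5.65 and 5.70 in double null and 2.63, 4.24, 3.75 and 3.62 in MuRF1 null MuRF2 het hearts. It rose by 1.88 ± 0.33 (adjusted p = 0.0263), and its mean in MuRF1 null MuRF2 het hearts, 3.56, lay beside the wild type 3.70.

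Acta1, the skeletal muscle actin that the fetal heart uses, read -2.18, -0.32, -1.09 and -1.40 in double null hearts and -2.73, -3.08, -2.77 and -2.76 in MuRF1 null MuRF2 het hearts. It rose by 1.59 ± 0.28 (adjusted p = 0.0254), without overlap. Both MuRF1-null groups lay above the wild type range of -3.72 to -3.40. The MuRF1 null MuRF2 het mean was 0.67 above wild type, a difference that did not pass (adjusted p = 0.173 by limma). Ccn2 encodes connective tissue growth factor, a secreted matrix protein induced by stretch. Its double null values were spread widely, at 0.69, 1.65, 3.30 and 2.66, against 0.45, -0.25, -0.53 and -0.07. It rose by 2.18 ± 0.39 (adjusted p = 0.0263), and double null array 1 stood only just above MuRF1 null MuRF2 het array 1.

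The promoters of 3 of these genes are shown because the genes rose together and because sites for muscle and stretch-linked factors are known in genes of this kind. They are the 250 bases before the start from the RefSeq promoter table of GRCm38.p6, at chr4:148000472-148000721 (plus strand) for Nppa, chr4:147985650-147985899 (plus strand) for Nppb and chr8:123894776-123895025 (minus strand) for Acta1. Capitals mark MCAT (CATTCC on either strand, the letters TEAD factors bind) and the SRF CArG box, which do not overlap here.
Nppa: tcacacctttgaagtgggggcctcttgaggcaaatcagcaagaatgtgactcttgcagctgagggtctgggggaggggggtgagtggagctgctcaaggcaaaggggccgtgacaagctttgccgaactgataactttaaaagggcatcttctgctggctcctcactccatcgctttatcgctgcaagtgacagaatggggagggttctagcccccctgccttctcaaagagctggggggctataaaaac
Nppb: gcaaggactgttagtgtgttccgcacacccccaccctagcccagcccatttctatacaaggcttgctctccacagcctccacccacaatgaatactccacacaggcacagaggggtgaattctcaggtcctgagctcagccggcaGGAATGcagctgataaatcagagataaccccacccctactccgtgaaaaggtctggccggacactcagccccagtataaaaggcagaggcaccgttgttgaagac
Acta1: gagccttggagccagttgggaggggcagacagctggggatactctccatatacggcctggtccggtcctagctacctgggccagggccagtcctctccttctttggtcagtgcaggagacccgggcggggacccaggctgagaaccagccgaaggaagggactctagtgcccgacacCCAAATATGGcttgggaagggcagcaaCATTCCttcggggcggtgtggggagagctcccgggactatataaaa

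Acta1 held an MCAT and a CArG box, Nppb an MCAT on the other strand, and the Nppa window none of the motifs searched. Promoters were found for 14 of the 19 genes that rose, 17 of the 22 that fell and 8899 of the 12345 tested. MCAT stood in 6 of the 14 (42.9%; Acta1, Hspb1, Lman1l, Nppb, Otulin and 1810058I24Rik), in 2 of the 17 (11.8%; Acsl1 and Cish) and in 13% of genes tested. The CArG box was in 1 of the 14, 1 of the 17 (Rnf128) and 1.6% of genes tested, and the MEF2 box in 1 of the 14 (1810058I24Rik), 1 of the 17 (Alas1) and 2.16%. The E2F letters TTTCCCGC, TTTGGCGC, TTTCGCGC and TTTGCCGC were in 0 of the 14, 0 of the 17 and 3.71%. Both strands were searched for all motifs. Over all promoters of the table the shares were 12.6% for MCAT, 1.47% for the CArG box, 2.92% for the MEF2 box and 1.86% for the E2F letters. These matches describe letters in a window and were not tested.

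Myh7, the slow myosin heavy chain of the fetal heart, had the largest difference of the fetal list but did not pass. It read -0.38, 2.81, 3.82 and 3.20 in double null hearts and -0.93, 0.55, -2.0 and 0.13 in MuRF1 null MuRF2 het hearts. Double null array 1 lay among the MuRF1 null MuRF2 het arrays and the other 3 far above them. The difference was 2.93 ± 0.72 (adjusted p = 0.102), and among the fits that left out 1 array it passed only without double null array 1 (3.84, adjusted p = 0.00341). A second Myh7 probe gave the same pattern, with a difference of 3.1. Myh6, its adult counterpart, read 1.61, 2.44, 3.02 and 2.74 against 2.28, 4.02, 3.49 and 3.55, with a difference of -0.88 ± 0.31 that did not pass (adjusted p = 0.302). Without MuRF1 null MuRF2 het array 1 the Myh6 difference was -1.23 (adjusted p = 0.0137).

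**Figure D3:**
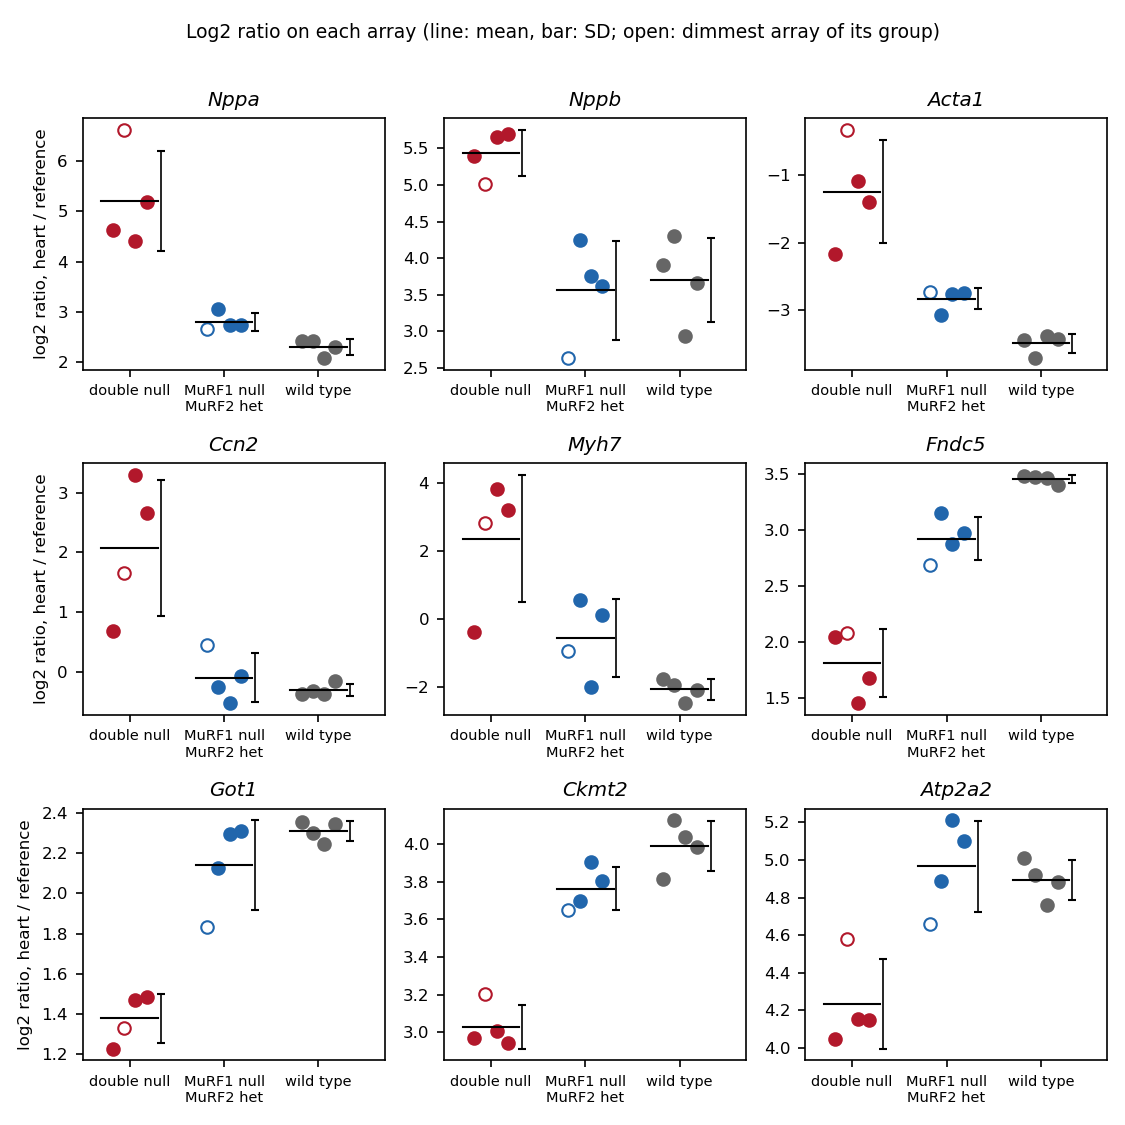
Log2 ratio of heart over reference (vertical axis) on each of 12 arrays for 9 genes, with the group mean as a line, the SD as a bar (n = 4) and the dimmest double null and MuRF1 null MuRF2 het arrays as open circles. Nppa, Nppb, Acta1 and Ccn2 were higher and Fndc5, Got1, Ckmt2 and Atp2a2 lower on all 4 double null arrays than on any MuRF1 null MuRF2 het array, while 1 double null array overlapped for Myh7.

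Over the 30 fetal and stress-induced heart genes, 4 rose (Nppa, Nppb, Acta1 and Ccn2) and 0 fell. The difference was above 0 for 27 and the list's median was 0.31, beside -0.0024 over all genes tested, and 16 had an unadjusted p under 0.05. Of all 12345 genes tested, 0.154% rose, 0.178% fell, 6076 lay above 0, 6269 lay below 0 and 9.67% had an unadjusted p under 0.05. Several members of the fetal list with large differences did not pass and are given for their size, chosen after their values were seen. Nmrk2, an enzyme of NAD synthesis, read 2.95, 1.58, 4.59 and 4.37 against 0.54, 1.60, 0.99 and 1.40 (2.24 ± 0.47, adjusted p = 0.0563). Gdf15, a secreted stress protein, read 1.41, 0.61, 3.17 and 3.13 against 0.09, 0.67, 0.12 and 0.47 (1.74 ± 0.43, adjusted p = 0.102). For both, the dim double null array 2 lay inside the MuRF1 null MuRF2 het range and arrays 3 and 4 were highest. Gdf15 was above background on only 2 of 4 MuRF1 null MuRF2 het and 2 of 4 wild type arrays. Fhl1, a LIM protein of the sarcomere, differed by 1.16 ± 0.29 (adjusted p = 0.102), and its relative Fhl2 by -0.54 ± 0.19 (adjusted p = 0.285). Ankrd1, a titin-binding repeat protein that responds to stretch, read 4.56, 4.36, 5.36 and 5.66 against 2.40, 4.36, 4.25 and 4.83 and did not pass (1.02 ± 0.41, adjusted p = 0.398).

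Outside that list, Tnfrsf12a, the receptor of the cytokine TWEAK, read 1.91, 1.45, 2.13 and 1.89 in double null and 0.55, 1.09, 0.48 and 0.54 in MuRF1 null MuRF2 het hearts. It rose by 1.18 ± 0.23 (adjusted p = 0.0383), and the wild type mean was 0.39. Lman1l, a lectin-like protein gene, rose by 1.53 ± 0.30 (adjusted p = 0.0383), from 0.37 ± 0.22 to 1.90 ± 0.84. It was above background on 3 of 4 MuRF1 null MuRF2 het and 2 of 4 wild type arrays. The kinase gene Nuak1 rose by 0.94 ± 0.16, Otulin, encoding a deubiquitinase for linear ubiquitin chains, by 0.80 ± 0.16, and Uck2, a uridine-cytidine kinase, by 0.71 ± 0.12. In MuRF1 null MuRF2 het hearts these 3 genes stood at 0.35, 0.20 and 0.89, against 0.32, 0.21 and 0.97 in wild type. Plekho1 (0.67), the spermine synthase gene Sms (0.59), the leucyl-tRNA synthetase gene Lars (0.55) and the lysine methyltransferase gene Smyd2 (0.35) completed the risers that have a symbol, beside 4 entries with clone names.

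Among 24 heat shock and chaperone genes, 2 rose and 0 fell, with a list median of 0.10. Over all genes tested, 0.154% rose and 0.178% fell. Hsp90aa1, the inducible cytosolic HSP90, read -0.41, -0.31, -0.09 and -0.29 in double null hearts against -0.86, -1.20, -1.71 and -1.36. It rose by 1.01 ± 0.15, or 2.01-fold (adjusted p = 0.0112), to a level above the wild type range of -1.72 to -1.24. Hspb1, the small heat shock protein HSP27, rose by 0.66 ± 0.13 (adjusted p = 0.0383), with MuRF1 null MuRF2 het array 1, at 0.66, nearest to the double null 0.75 to 1.08. Hspa8 (0.56 ± 0.11) lay just above the threshold, and Hsph1 (0.51 ± 0.12, adjusted p = 0.1) and Hspa1a (1.05 ± 0.28, adjusted p = 0.143) did not pass. The mitochondrial chaperone Hspd1 had a difference in the other direction, -0.56 ± 0.15 (adjusted p = 0.128).

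Fatty acid oxidation held the largest group of fallers. Of its 35 measured genes, 8 fell and 0 rose, 33 had a difference below 0, 22 had an unadjusted p under 0.05, and the median was -0.38. Over all genes tested, 0.178% fell, 6269 of 12345 lay below 0 and 9.67% had an unadjusted p under 0.05. Acsl1, which activates long-chain fatty acids to their CoA esters, read -0.29, 0.30, 0.10 and -0.09 in double null hearts against 0.42, 0.89, 0.87 and 0.72 (-0.72 ± 0.12, adjusted p = 0.0254). Cpt2, the carnitine palmitoyltransferase of the inner mitochondrial membrane, read 1.39, 1.58, 1.82 and 1.69 against 1.82, 2.41, 2.51 and 2.52 (-0.69 ± 0.14, adjusted p = 0.0383). Its groups met at MuRF1 null MuRF2 het array 1, whose 1.818 lay just below the 1.825 of double null array 3. Crat, carnitine acetyltransferase, read 0.55, 0.68, 0.64 and 0.59 against 0.92, 1.43, 1.33 and 1.37 (-0.65 ± 0.09, adjusted p = 0.0112).

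The enzymes of the beta-oxidation spiral followed. Acadvl, the very long-chain acyl-CoA dehydrogenase, fell by 0.70 ± 0.13 (adjusted p = 0.0383), with double null array 2, at 1.26, nearest to the MuRF1 null MuRF2 het values of 1.41 to 1.69. Hadh, the 3-hydroxyacyl-CoA dehydrogenase, read 0.79, 0.22, 0.29 and 0.36 against 1.14, 1.00, 1.21 and 1.36 (-0.76 ± 0.13, adjusted p = 0.0214). Eci1, the isomerase needed for unsaturated fatty acids, read 1.01, 0.89, 0.39 and 0.72 against 1.42, 1.41, 1.87 and 1.60 (-0.82 ± 0.12, adjusted p = 0.0115). Acaa2, the mitochondrial thiolase, fell most, from 1.70 ± 0.28 to 0.64 ± 0.49 (-1.06 ± 0.20, adjusted p = 0.0383), with double null array 3 lowest at 0.06. Etfdh, which passes electrons from these dehydrogenases to ubiquinone, fell by 0.59 ± 0.11 (adjusted p = 0.0383). Against wild type the MuRF1 null MuRF2 het means of Eci1, Hadh, Acsl1, Etfdh and Acaa2 differed by 0.15, -0.04, -0.05, -0.12 and 0.15. Those of Acadvl, Cpt2 and Crat differed by -0.17, -0.22 and -0.38. Among the others, Hadhb (-0.52 ± 0.13, adjusted p = 0.104) and Acadm, the medium-chain dehydrogenase (-0.77 ± 0.21, adjusted p = 0.15), had the smallest p without passing.

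**Figure D4:**
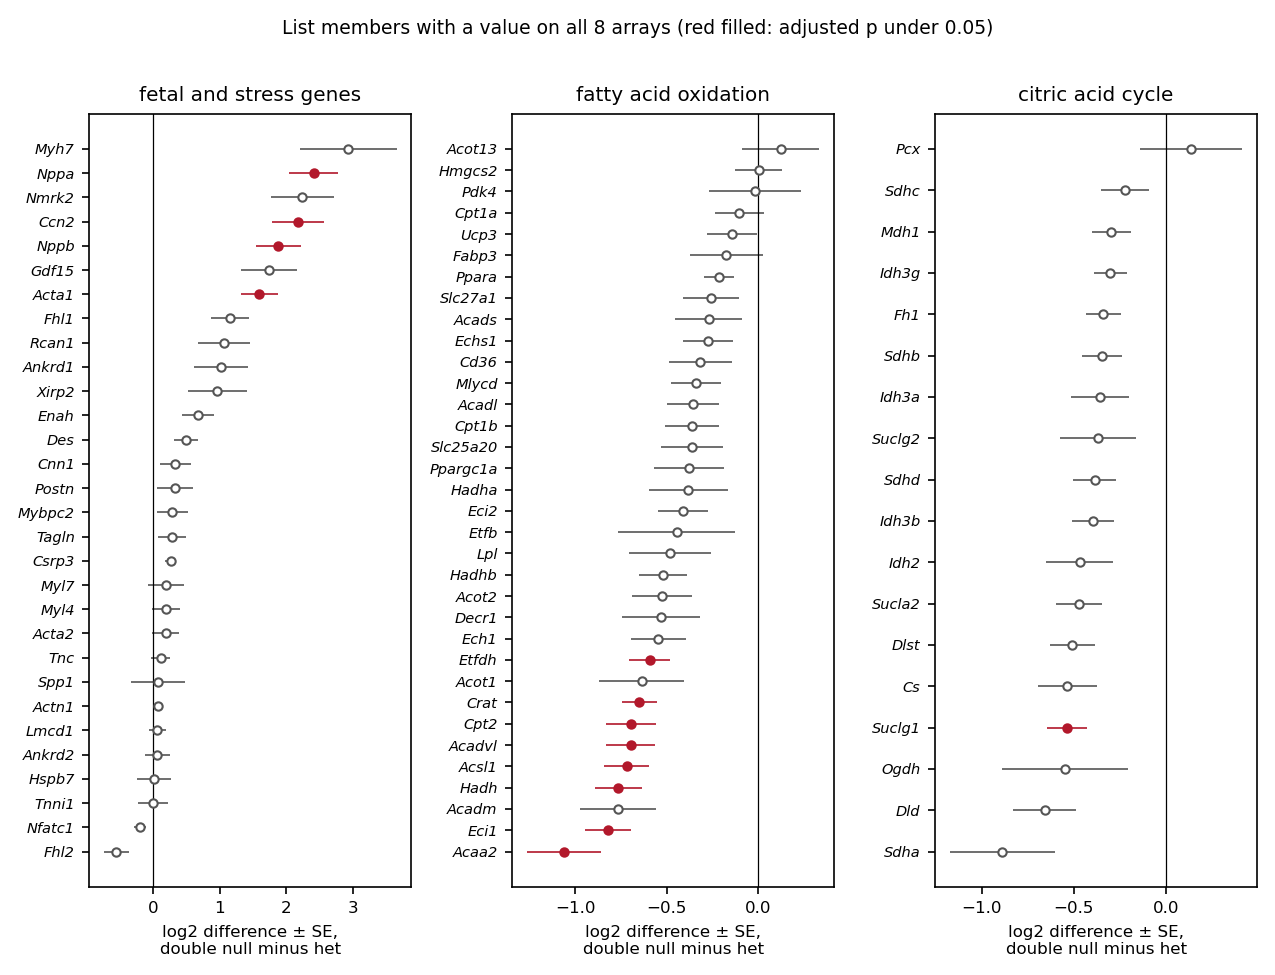
Difference between double null and MuRF1 null MuRF2 het hearts (log2, horizontal axis) with its standard error for the members of 3 gene lists that have a value on all 8 arrays; filled red points had an adjusted p under 0.05. In the fetal list 27 of 30 points lay above 0, while 2 points of fatty acid oxidation and 1 of the citric acid cycle did.

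The citric acid cycle, which takes the acetyl-CoA of beta-oxidation, lay lower as a list although few members passed. Of 20 genes, Suclg1, the alpha subunit of succinyl-CoA ligase, fell and 0 rose. It read 0.45, 0.28, 0.35 and 0.32 against 0.88, 0.56, 1.10 and 1.01 (-0.54 ± 0.11, adjusted p = 0.0413). The difference was below 0 for 19 of the 20, 16 had an unadjusted p under 0.05, and the median was -0.43. Over all genes tested, 6269 of 12345 lay below 0 and 9.67% had an unadjusted p under 0.05. Dlst (-0.51 ± 0.12, adjusted p = 0.101) and Dld (-0.66 ± 0.17, adjusted p = 0.12), both of the 2-oxoglutarate dehydrogenase complex, did not pass. Of 72 oxidative phosphorylation genes, Ndufa10 of complex I fell (-0.60 ± 0.11, adjusted p = 0.0383) and 0 rose. There, 66 lay below 0 with a median of -0.20, but with double null arrays of slide 1 only, arrays 1 and 2, that median was 0.04. Ndufa6, also of complex I, was next (-0.37 ± 0.08, adjusted p = 0.0517).

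Outside those lists, Fndc5, which encodes the membrane precursor of irisin, had the smallest adjusted p of all genes. It read 2.05, 2.08, 1.45 and 1.68 in double null hearts, 2.69, 3.15, 2.87 and 2.98 with 1 MuRF2 allele and 3.40 to 3.48 in wild type hearts. The 3 groups did not overlap, and the fall was 1.11 ± 0.13 on the log2 scale, or 2.15-fold (adjusted p = 0.00345). The MuRF1 null MuRF2 het mean was 0.53 below wild type, which did not pass (adjusted p = 0.0579). Got1, the cytosolic aspartate aminotransferase, read 1.23, 1.33, 1.47 and 1.49 against 1.83, 2.12, 2.30 and 2.31 (-0.76 ± 0.10, adjusted p = 0.00657). Gpt, alanine aminotransferase, fell by 0.68 ± 0.14 (adjusted p = 0.0435), and Mccc1, of leucine breakdown, by 0.92 ± 0.16, to 0.07, 0.14, -0.02 and 0.15 from 0.70, 1.26, 1.00 and 1.06. Alas1, the first enzyme of haem synthesis, fell by 0.58 ± 0.11 (adjusted p = 0.0383).

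Genes of the adult contractile cell fell in small number. Ckmt2, the mitochondrial creatine kinase of striated muscle, read 2.97, 3.20, 3.01 and 2.94 in double null and 3.65, 3.70, 3.90 and 3.80 in MuRF1 null MuRF2 het hearts (-0.73 ± 0.10, adjusted p = 0.00657). Atp2a2, the SERCA2 pump that returns calcium to the sarcoplasmic reticulum, read 4.05, 4.58, 4.15 and 4.15 against 4.66, 4.89, 5.21 and 5.10 (-0.73 ± 0.14, adjusted p = 0.0383). The highest double null value of Atp2a2 and the lowest of the other group came from the dimmest arrays. These were the 2 fallers among 20 adult heart muscle genes (17 below 0, median -0.29), and Atp2a2 was the only faller among 27 genes of calcium handling and ion channels (24 below 0, median -0.29). Trdn (-0.38 ± 0.08, adjusted p = 0.0729) and Hrc (-0.80 ± 0.18, adjusted p = 0.0781), proteins of the calcium store, and Kcnd2 (-0.87 ± 0.21, adjusted p = 0.101), a potassium channel, came next. Among 30 sarcomere and Z-disc genes 0 passed in limma, 6 had an unadjusted p under 0.05 and the median was -0.03. Beside these lists, 0.332% of all genes tested passed, 0.178% fell, 6269 of 12345 lay below 0 and 9.67% had an unadjusted p under 0.05.

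The remaining fallers described here had other roles. Lrtm1, a membrane protein gene, read 2.99, 2.55, 2.65 and 2.71 against 3.41, 4.32, 3.54 and 4.07 (-1.11 ± 0.22, adjusted p = 0.0453). Cish, a suppressor of cytokine signalling, read 0.93, 0.68, 0.34 and 0.46 against 1.37, 1.72, 1.99 and 1.22, with a wild type range of 2.05 to 2.56 (-0.97 ± 0.19, adjusted p = 0.0383). Efnb3, an ephrin ligand, fell to 0.13 ± 0.08 from 0.98 ± 0.43 and Whrn, encoding whirlin, to -0.01 ± 0.06 from 0.83 ± 0.34. For both, 3 of the 4 double null arrays were above background, and wild type stood at 1.37. Rnf128, encoding a ubiquitin ligase, fell by 0.46 ± 0.09, the smallest difference of the 22.

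**Figure D5:**
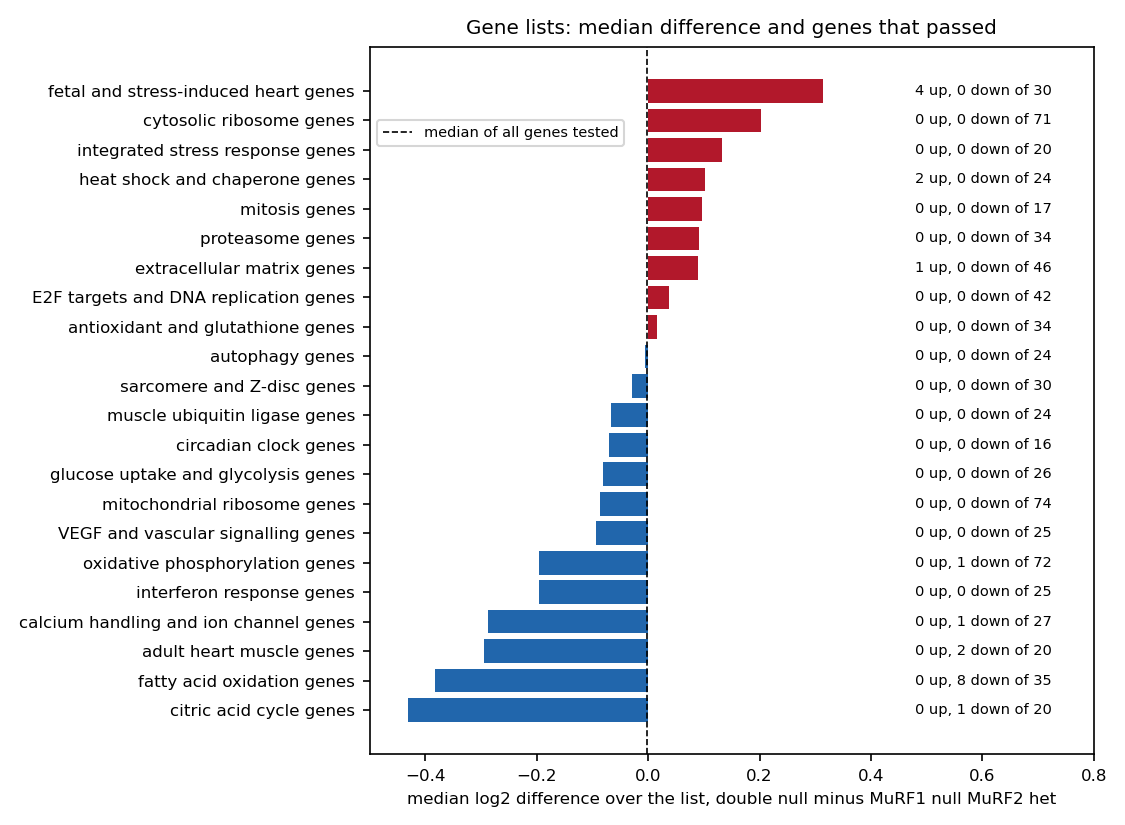
Median log2 difference, double null minus MuRF1 null MuRF2 het (horizontal axis), over the measured genes of 22 lists, with the number of genes that passed in each direction written beside each bar; the dashed line is the median of all genes tested. The citric acid cycle (-0.43) and fatty acid oxidation (-0.38) stood lowest and the fetal and stress-induced genes (0.31) highest.

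Genes of the cell cycle were examined because the series title names E2F1. E2f1 itself read 0.10, 0.21, 0.08 and 0.12 in double null and 0.23, 0.09, 0.17 and 0.07 in MuRF1 null MuRF2 het hearts (-0.01 ± 0.06, adjusted p = 0.990), with signal above background on 2 and 3 of 4 arrays. Of 42 E2F target and DNA replication genes, limma called 0, 1 had an unadjusted p under 0.05, and the median was 0.04. Over all genes tested, 0.332% passed, 9.67% had an unadjusted p under 0.05 and 6076 of 12345 lay above 0. In lists of the sizes given in this paragraph, 0 passing genes is near that share and is no result about their members. Of 17 mitosis genes 0 passed and 0 had an unadjusted p under 0.05. Cdkn1a, the p21 cell cycle inhibitor, differed by 0.21 ± 0.15 (adjusted p = 0.721). Of 34 proteasome genes limma called 0 (2 with an unadjusted p under 0.05, median 0.09), and of 24 muscle ubiquitin ligase genes also 0 (3 with an unadjusted p under 0.05, median -0.07). Rnf128 and Otulin, a ubiquitin ligase and a deubiquitinase gene that passed, are on neither list. Of 71 cytosolic ribosome genes 0 passed and 2 had an unadjusted p under 0.05, although 69 lay above 0 with a median of 0.20. Leaving out 1 array moved that median from -0.017 (without double null array 2) to 0.43 (without MuRF1 null MuRF2 het array 1). The list's median level was highest on the dimmest arrays of both groups, and the part of dim signal in the median was not tested.

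Markers of heart cell types were set beside these results. All 12 markers of cardiac muscle cells were measured in both groups, though Mybpc3 lacked a value on at least 1 of these 8 arrays. Their sum, as linear ratios to the reference, was 195 to 349 in double null and 336 to 361 in MuRF1 null MuRF2 het hearts. A missing value was left out of an array's sum, so Mybpc3, a high member (mean 6.27 and 6.16), can lower an end of these ranges. Ckmt2 was the only member that passed. Atrial muscle markers summed to 24.2 to 103 against 10.3 to 12.3, but most of this was Nppa, read from the probe that was saturated on 1 array, and the other 7 summed to 3.04 to 5.02 against 3.66 to 4.36. Of the 8 tested, Nppa rose and no other passed, 5 lay above 0 with a median of 0.09, and Bmp10 and Nr2f1 were not above background on any array of these groups. The atrial median was -0.22 with double null arrays of slide 3 only and -0.27 without double null array 2. Skeletal muscle markers summed to 5.23 to 9.20 against 7.62 to 9.43, and Acta1 was the only 1 of 12 to pass. Of the 12, 7 lay above 0 and 5 below, and 4 had an unadjusted p under 0.05. Beside Acta1 these were Myh4 (-1.12), Atp2a1 (-0.85) and Ckm (-0.66), which lay lower in double null hearts and did not pass. Sums overlapped for fibroblasts (11.3 to 15.6 against 10.5 to 12.2), smooth muscle cells and pericytes (13.0 to 15.6 against 12.7 to 16.7), endothelial cells (19.9 to 21.1 against 19.9 to 27.5) and macrophages (14.7 to 17.2 against 14.1 to 17.4), and limma called 0 of their 14, 13, 18 and 14 genes, with 1, 3, 1 and 0 at an unadjusted p under 0.05. Over all genes tested, 0.332% passed and 9.67% had an unadjusted p under 0.05. Of 12 lymphocyte markers 9, Cd3e and Cd79a among them, were not above background on any array. The part of cell make-up in the results was not tested.

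The position of the genes relative to the altered loci was also examined. Within 10 Mb of Trim55, 27 genes were tested and limma called 0, against 0.351% of the other genes with a position, and 3 had an unadjusted p under 0.05. Within 10 Mb of Trim63, a locus altered in both groups, 1 of 210 passed (0.476%), against 0.347% of the others. That gene was Fndc5, 5.18 Mb from Trim63. Nppa and Nppb, neighbours on the same chromosome, lay just beyond that distance, 13.7 Mb from Trim63. Linked alleles of the parent strains as a source of these differences were not tested.

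The MuRF1 null MuRF2 het level of these genes was also set beside wild type. The comparisons with wild type share arrays with the main one, and the genes were picked by their difference from the MuRF1 null MuRF2 het arrays. The counts are thus a description, and the same share over all genes was not counted. Of the 22 genes that fell, the MuRF1 null MuRF2 het mean was within 0.25 of wild type for 14 and within 0.5 for 19, and of the 19 that rose, for 12 and 17. None of the 41 passed in MuRF1 null MuRF2 het against wild type, where limma called 125 genes (1.01%), while double null against wild type gave 2743 (22.2%). Side by side, the differences of double null and of MuRF1 null MuRF2 het hearts from wild type were 2.90 and 0.49 for Nppa, 1.74 and -0.14 for Nppb, 2.26 and 0.67 for Acta1, and 2.38 and 0.21 for Ccn2. They were -0.66 and 0.07 for Atp2a2, -0.93 and -0.17 for Got1, and -1.79 and -0.82 for Cish, the last being the largest such difference in MuRF1 null MuRF2 het hearts among the 41.

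The arrays of each group were not equally far from the other group. Among the 41 genes, the MuRF1 null MuRF2 het array nearest to the double null mean was array 1 for 23 genes, array 2 for 15, array 4 for 2 and array 3 for 1. The double null array nearest to the MuRF1 null MuRF2 het mean was array 2 for 18, array 1 for 15 and arrays 3 and 4 for 4 each. The dimmest array of each group was thus the nearest most often, and with both left out 482 genes passed, all 41 among them. The part of dim signal in this was not tested. With double null arrays 3 and 4 only, 301 genes passed, and with arrays 1 and 2 only, 3.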

How the data were processed

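The deposited array files, read in Agilent Feature Extraction (version 9.1.3.1 for the arrays compared, 9.5.3.1 for the other mutant genotype, per the file headers), give mean spot intensity and median background intensity in both colours. Each sample started from 50 ng of total RNA, per the labels. The channel entries put heart RNA in Cy5, which was followed, although the labelling text names only Cy3. The deposited files also give the authors' log10 ratio of Cy5 over Cy3 and flags for irregular, saturated and dim spots. A deposited series matrix gives log2 values, whose making the sources used here do not describe. They correlated with the Feature Extraction ratio less each probe's median over arrays (median correlation 0.992, 71.5% of values within 0.01), and column medians ran from -0.0279 to 0.0238. The file of double null array 2 carried ratios rounded to 3 significant digits and 47 spots with altered gene names, so names were taken from another array.

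Intensities were corrected by normexp (offset 50) and loess within arrays in limma 3.58.1 (R 4.3.3), with control and irregular spots given no weight. Spots of a probe were averaged (41174 probes). Probes well above background in Cy5 on at least 4 of 16 arrays were kept (16830), with the brightest per gene used, which left 12345 genes. Symbols came from RefSeq (GRCm38.p6) by accession for 22951 probes, symbol for 6659 and synonym for 3109, and 8455 kept the file's name. The sources used here name no build for the array design. limma fitted 1 mean per genotype over all 16 arrays, two-sided, with an adjusted p threshold of 0.05, and was tested on simulated data. Precision is limited by 4 arrays per group.

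The groups, gene lists and tests were chosen with earlier results of these data known. The named genes are 12 fixed genes, up to 12 of the largest non-overlapping changes in each direction and up to 4 members with the smallest p from each list, without clone names. Nmrk2, Fhl1, Fhl2, Hspa1a, Hspd1 and members compared with these were added after their values were seen. Alternatives were other backgrounds, normalizations, filters, values, blocks and left-out arrays.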

Additional observations from a re-analysis of the deposited data

Results flagged for a closer look

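In 196 groups of 4 arrays examined (genes named and lists, in double null or MuRF1 null MuRF2 het hearts), 16 had a highest or lowest array far from the other 3, by a gap to the nearest beyond Dixon's critical value. Chance gives this in about 5% of groups. None of these was given an explanation.

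Among the double null arrays, Trim55 on array 2 read -0.52 while the others read -1.66 to -1.59. Plekho1 on array 1 read 0.98 against 0.96 to 0.97, a narrow range in which the gap itself is small. The median level of a list, each gene centred, was apart on double null array 2 for the integrated stress response (0.29 against 0.06 to 0.10), interferon response (-0.36 against -0.11 to -0.07), atrial muscle markers (0.93 against -0.22 to -0.11), smooth muscle and pericyte markers (0.16 against -0.17 to -0.12) and epicardial markers (0.56 against -0.10 to -0.0065). On array 1 it was apart for antioxidant genes (0.14 against -0.04 to -0.01).

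Among the MuRF1 null MuRF2 het arrays, array 1 was apart for Hspb1 (0.66 against 0.06 to 0.16), Cpt2 (1.82 against 2.41 to 2.52) and Hspd1 (-0.54 against -0.03 to 0.07). Array 2 was apart for Acta1 (-3.08 against -2.77 to -2.73), Tnfrsf12a (1.09 against 0.48 to 0.55), VEGF and vascular signalling genes (0.10 against -0.06 to -0.04) and interferon response genes (0.45 against -0.19 to -0.08). Array 3 was apart for Trim54 (2.41 against 2.65 to 2.68).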

How the results depend on the processing

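The count of genes that passed was 41 (19 higher, 22 lower) and became 0 (0 and 0) both with the 8 arrays alone and with median centring in place of loess, where 565 and 185 genes had an unadjusted p under 0.05. It was 3 (1 and 2) with double null arrays of slide 1 only, 301 (177 and 124) with those of slide 3 only, 74 (36 and 38) with scaling between arrays, 87 (33 and 54) with the Feature Extraction log ratio and also with the series matrix, 14 (7 and 7) of 27667 without a filter, 2982 (1320 and 1662) with array weights, 312 (141 and 171) with a covariate for Cy5 brightness and 482 (225 and 257) without both dimmest arrays. The share of higher among those called was 46.3%, and 37.9% with the Feature Extraction ratio or series matrix, 58.8% with slide 3 only and 33.3% with slide 1 only. Leaving out an array of the groups compared gave 3 to 353 genes, 0 to 134 higher and 3 to 219 lower, and a wild type array 19 to 39, 9 to 20 and 10 to 19. The cause of these moves was not tested, apart from fewer samples or another number of genes tested where the alternative sets it.

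With the replicate number as a block, 16 genes passed (7 and 9), 15 of them among the 41. Deviations of same-numbered arrays correlated by -0.14, -0.61, -0.04 and 0.36, and 0 of 4 double null arrays correlated best with its own number. The dimmest arrays of the 2 groups carry different numbers, so this check does not decide whether same-numbered arrays were paired.

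The fetal list's median of 0.31 became 0.47 with the Feature Extraction ratio or series matrix and 0.59 over genes above background on all 8 arrays. Leaving out 1 array gave 0.22 to 0.50, and -0.52 to -0.32 for fatty acid oxidation. Differences near 0 changed sign. With slide 1 only, Trim63 was 0.055, E2f1 0.015 and the oxidative phosphorylation median 0.038. E2f1 was 0.0029 with median centring and 0.0198 with array weights. With slide 3 only, medians were -0.054 for extracellular matrix, -0.22 for atrial and -0.49 for skeletal muscle markers. Atrial markers also gave -0.11 with array weights and -0.086 without both dimmest arrays. Skeletal muscle markers gave -0.0338 with the Feature Extraction ratio, -0.0352 with the series matrix, -0.10 with array weights, -0.0339 with the brightness covariate and -0.093 without both dimmest arrays. Leaving out 1 array of the groups compared gave -0.198 to 0.020 for Trim63, -0.038 to 0.0194 for E2f1, -0.091 to 0.21 for the extracellular matrix median, -0.27 to 0.30 for atrial and -0.36 to 0.26 for skeletal muscle markers. Dim Cy5 signal limits what can be read from double null array 2 and MuRF1 null MuRF2 het array 1.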
